A study of Mus musculus with 22 samples.

Results

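Of the 23453 gene symbols counted in 22 single astrocytes, 38 were kinesins whose symbol begins with Kif followed by a digit, and all 38 are accounted for here. They were divided by their textbook roles into 13 transport kinesins, 12 mitotic kinesins, 6 ciliary kinesins, 6 kinesins of microtubule ends and signalling, and 1 pseudogene. The astrocytes came from primary cultures of the cortex of newborn C57BL/6 mouse pups (P0 to P1), with no genetic change or transgene named. The cultures had been shaken and exposed to cytosine arabinoside, an agent that kills dividing cells, before replating, and serum was withdrawn ahead of the recordings. Each cell was loaded with the calcium indicator Fluo-4, challenged with EtOH, assigned to a response type from its live calcium trace and drawn into a glass pipette. There were 6 S-type cells (slow rise and decay), 6 T-type cells (transient rise), 5 M-type cells (mixed waveform) and 5 NR cells (no response), so that NR cells had met EtOH as well. No source used here names the pup or culture of any cell, and each type therefore counted as 1 sample. No test between types was made, and differences are described by their size, their counting interval and the spread between cells.

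Kinesins are motor proteins that use ATP to walk along microtubules or to take microtubule ends apart. Transport kinesins such as the KIF5 heavy chains (kinesin-1), the KIF1 family (kinesin-3) and the KIF3 complex (kinesin-2) carry organelles, vesicles and mRNA outwards in non-dividing cells, astrocyte processes included. Mitotic kinesins build the spindle, move chromosomes and cut the cell apart at the midbody, and most of their genes are switched on late in the cell cycle and are silent in resting cells. A few others work in the primary or motile cilium or at microtubule plus ends.

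Libraries held between 2937786 reads (T-type cell J163_18) and 22131076 reads, with a median of 16965582. Counts were divided by size factors, and the level of a gene or class is this normalized count, averaged over the cells of a type. Size factors ran from 0.183 (J163_18) to 2.31 (J176_25), and T-type cell J162_16 had 0.276 at 12564138 reads. No molecular identifiers were used, so reads copied from 1 molecule were counted separately. Every 95% interval below therefore covers the counting error of reads only, and takes no account of amplification or of the spread between cells. A read was present from 12 or 13 of 13 astrocyte markers in every cell, whose summed level ran from 59514 in NR cell J186_5 to 612143 in T-type cell J162_16. Vim held the largest share of this sum in every cell, from 24.1% in J154_8 to 89.8% in J165_23 (64.6% in J162_16). Of the other cell types, 2 to 9 of 13 neuron markers had a read in a cell (summed level 476 to 32068), as did 1 to 12 of 13 microglia markers (6.50 to 3936), 3 to 7 of 10 oligodendrocyte lineage markers (526 to 53351), 0 to 3 of 8 endothelium markers (0 to 2499) and 2 to 7 of 9 mural cell and fibroblast markers (651 to 112394). S-type cell J153_6 held reads of Xist (837) beside reads of the Y chromosome (3737), as did J174_13 of the M-type (1400 and 1333), and the class result below is also given without this pair of libraries.

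Kinesin reads made up between 0.120% (T-type cell J162_16) and 0.848% (T-type cell J161_9) of a library. Between 14 members (J163_18) and 32 members (NR cell J183_1) had a read in a cell, and the medians over the cells of S-type, NR, M-type and T-type were 26, 24, 22 and 20.5. After every library had been thinned to 2937786 reads, they were 23, 21, 20 and 17, so that the order of the types was retained. Kif2b, a kinetochore depolymerase, and Kif12, a kidney and liver kinesin, had no read in any cell, which allows a level of up to 0.319 (M-type) to 0.622 (T-type) in a type. Kif17 (55 reads in 3 cells), Kif19a (13 reads in 1 cell) and the pseudogene Kif4-ps (4 reads in 2 cells), a copy of Kif4, had a read in fewer than 5 cells, the least required for a comparison between types. The paper counted only uniquely aligned reads, so a read that fits Kif4 and Kif4-ps equally well would count for neither. The remaining 33 members were compared.

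**Figure D1:**
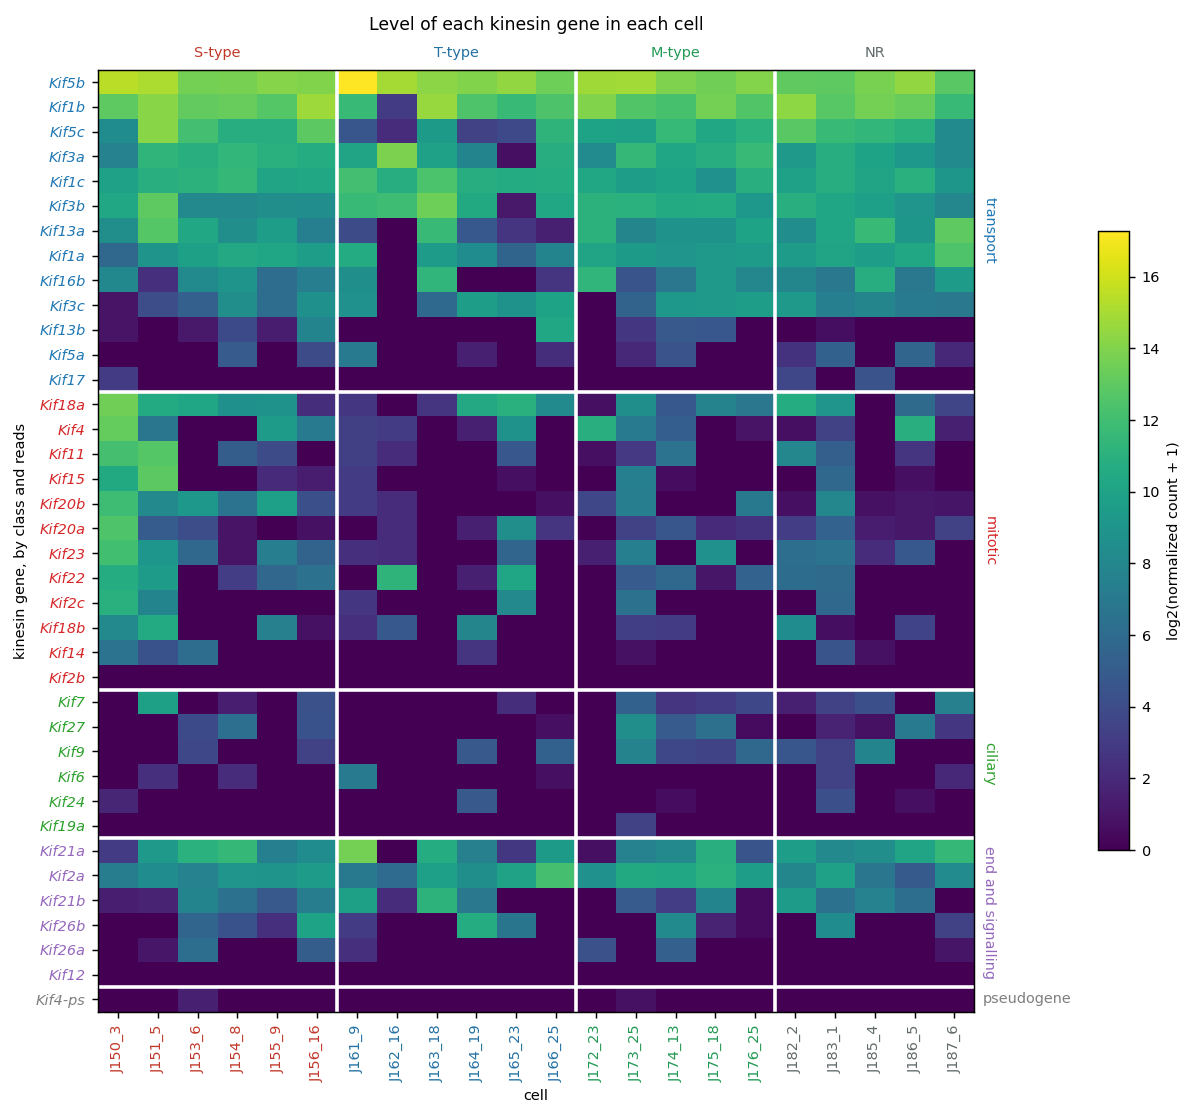
Normalized counts of the 38 kinesin genes (rows, grouped by class) in the 22 astrocytes (columns, grouped by response type), as log2 of the normalized count plus 1. The transport kinesins Kif1b, Kif1c, Kif3a, Kif3b, Kif5b and Kif5c had a read in all 22 cells, whereas most mitotic kinesins were high in S-type cells J150_3 and J151_5 and patchy elsewhere.

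Transport kinesins carried most kinesin reads in every astrocyte. Kif1b, Kif1c, Kif3a, Kif3b, Kif5b and Kif5c had a read in 22 of 22 cells, Kif1a and Kif13a in 21, Kif3c in 20, Kif16b in 19, Kif5a in 11, Kif13b in 10 and Kif17 in 3. Levels of different genes were compared per kb of exon, averaged over the 22 cells. On that scale Kif5b, the kinesin-1 heavy chain found in nearly all tissues, was at 3208 per kb, ahead of Kif1b (574), a carrier of mitochondria and vesicles, and Kif3a (556) and Kif3b (356), which together form the kinesin-2 motor that also builds cilia. Kif5c, a kinesin-1 heavy chain enriched in neurons, was at 397 per kb and Kif1c, a Golgi and vesicle motor, at 238. The highest mitotic kinesin, Kif4, was at 123 per kb.

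**Figure D2:**
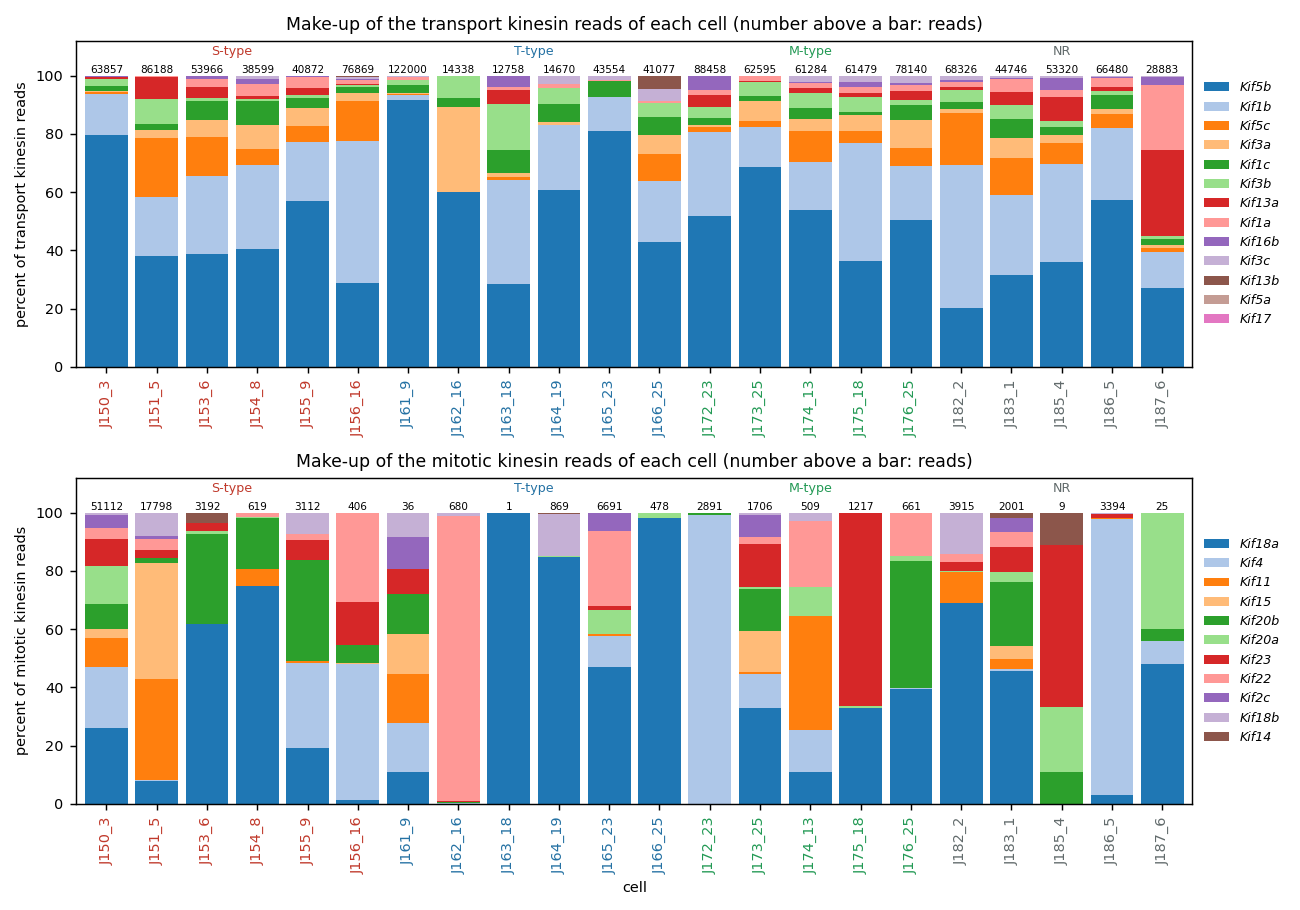
Percentage of transport kinesin reads (upper panel) and of mitotic kinesin reads (lower panel) held by each member in each of the 22 cells, ordered by response type. Kif5b held 20.0% to 91.5% of transport reads, while 7 different genes led the mitotic reads of 1 or more cells, Kif18a in 11 cells and Kif4 in 4 (in J161_9 tied with Kif11).

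The gene with the most transport reads was Kif5b in 17 cells, Kif1b in 4 cells (J156_16, J163_18, J175_18 and J182_2) and Kif13a in 1 cell (J187_6). These are shares of reads and are not corrected for gene length. The share of Kif5b was lowest in NR cell J182_2 (20.0%), where Kif1b held 49.2%, and highest in T-type cell J161_9 (91.5%). Averaged over cells, Kif5b held 60.7% of the class in T-type, 52.2% in M-type, 47.1% in S-type and 34.4% in NR, with an SD over cells between 11.5 and 23.4 percentage points.

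Summed over the class, the transport level was 56688, 93419, 32871, 33811, 32059 and 57044 in the S-type cells J150_3, J151_5, J153_6, J154_8, J155_9 and J156_16. It was 171722, 51998, 69589, 26760, 28225 and 26309 in the T-type cells J161_9, J162_16, J163_18, J164_19, J165_23 and J166_25. The M-type cells J172_23, J173_25, J174_13, J175_18 and J176_25 had 55339, 43829, 28732, 31894 and 33758, and the NR cells J182_2, J183_1, J185_4, J186_5 and J187_6 had 41478, 25380, 38343, 39760 and 26776. All 22 cells thus lay within one order of magnitude, the types overlapped, and J161_9 stood above every other cell. The T-type mean was 62434 ± 56306 (SD, n = 6 cells), the S-type mean 50982 ± 23880 (n = 6), the M-type mean 38710 ± 10877 (n = 5) and the NR mean 34348 ± 7646 (n = 5). Medians over cells were closer, at 40112, 45250, 33758 and 38343.

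Mitotic kinesins behaved differently, and the spread between cells was far wider than the spread between types. Their summed level was 45374 in S-type cell J150_3 and 19291 in J151_5, against 1944, 542, 2441 and 301 in the S-type cells J153_6, J154_8, J155_9 and J156_16. In T-type it was 50.7 in J161_9, 2466 in J162_16, 5.45 in J163_18, 1585 in J164_19, 4336 in J165_23 and 306 in J166_25. In M-type it was 1809, 1195, 239, 631 and 286, and in NR 2377, 1135, 6.47, 2030 and 23.2, in the order of the cells given above. J150_3 and J151_5 were the only cells above 4336, the level of J165_23, and together they held 92.5% of the S-type level and 73.2% of the level summed over all 22 cells. Fewer than 100 mitotic reads were present in 2 T-type cells, with 1 read in J163_18, the shallowest library, and 36 in J161_9, and in 2 NR cells, with 9 reads in J185_4, a library of 15057892 reads, and 25 in J187_6. The lowest S-type and M-type cells held 406 (J156_16) and 509 reads (J174_13).

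**Figure D3:**
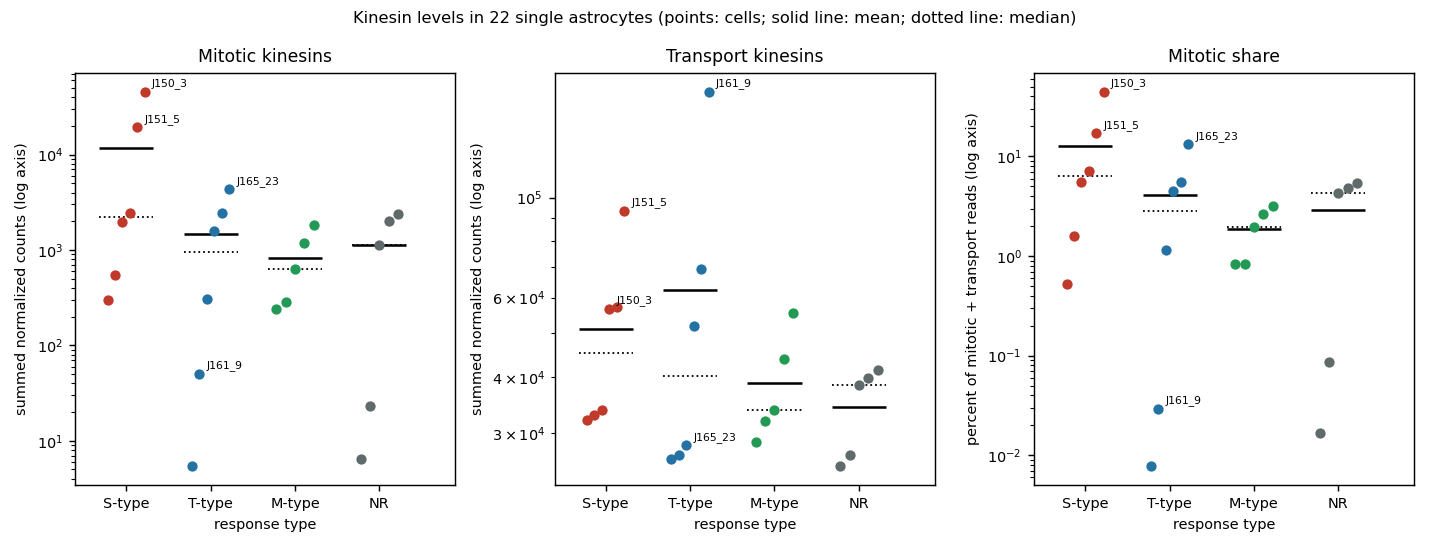
Summed normalized count of the mitotic kinesins, summed normalized count of the transport kinesins, and mitotic reads as a percentage of mitotic plus transport reads, per cell and response type, on log axes, with the mean over cells as a solid line and the median as a dotted line. Transport levels lay between 25380 and 171722, whereas mitotic levels lay between 5.45 and 45374.

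The share of mitotic reads in the reads of both classes within a cell needs no size factor. It was 44.5% in J150_3 (95% interval 44.2 to 44.7%, Clopper-Pearson), 17.1% in J151_5 (16.9 to 17.3%) and 13.3% in T-type cell J165_23 (13.0 to 13.6%). These were the only 3 cells above 10%. Another 12 cells lay between 1 and 10%, and 7 cells lay under 1%, of which 1 was of the S-type and 2 of each other type. S-type cells averaged 12.7% (median 6.33%), T-type cells 4.10% (2.84%), NR cells 2.93% (4.28%) and M-type cells 1.88% (1.94%).

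Within the mitotic class, detection in at least 1 read ranged widely. Kif18a, which damps chromosome movements at the metaphase plate, had a read in 20 cells, Kif20a, which brings the chromosomal passenger complex to the midzone, in 18, and Kif20b, a cytokinesis kinesin, in 17. Kif4, a chromokinesin that also organizes the midzone, and Kif23, a subunit of centralspindlin at the midbody, had a read in 16 cells each. Kif22, a chromokinesin, had one in 14 cells, Kif11, the motor that pushes spindle poles apart, in 13, and Kif18b, which shortens astral microtubules, in 12. Kif15, which helps to keep the spindle bipolar, had one in 10 cells, Kif14, a midbody kinesin, in 7, and Kif2c, a microtubule depolymerase at centromeres, in 6. Only 4 cells, namely J150_3, J151_5, M-type cell J173_25 and NR cell J183_1, had reads from 11 of the 12 mitotic genes. At a level of at least 100, the number was 10 in J150_3, 9 in J151_5 and no more than 5 in any other cell.

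In the other cells, a mitotic level usually came from 1 or a few genes. In 5 cells a single gene held over 90% of the mitotic reads, namely Kif4 in M-type cell J172_23 (99.2%) and NR cell J186_5 (94.8%), Kif22 in T-type cell J162_16 (98.1%), and Kif18a in T-type cells J166_25 (98.1%) and J163_18 (its only read). Kif18a had the most mitotic reads in 11 cells, Kif4 in 4, Kif20b and Kif23 in 2 each, and Kif11, Kif15 and Kif22 in 1 each. In J161_9, counted here for Kif4, Kif4 and Kif11 were tied at 16.7% of 36 reads. By contrast the leading gene held 26.1% in J150_3 (Kif18a) and 40.1% in J151_5 (Kif15).

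The 2 cells with the highest mitotic level did not share 1 profile. Both had reads from the same 11 genes, and 10 of these 11 reached their highest level of all 22 cells in one of them. The exception was Kif22 (2419 in J162_16), which rests on the size factor of 0.276 of that library. J162_16 held 680 mitotic reads in all among 12564138 reads, against 1847 reads of Kif22 alone among 16063660 in J150_3. Relative to library totals, Kif22 was therefore higher in J150_3. J150_3 was the higher of the pair in 8 genes and the lower in 3. Kif20a was at 5902 in J150_3 and 31.4 in J151_5 (log2 ratio 7.55, 95% interval 7.03 to 8.13), and Kif4 was at 9506 and 111 (6.43, 6.14 to 6.72). Both proteins act at the central spindle after chromosomes have parted. Kif20b (3874 and 282, log2 ratio 3.78), Kif2c (2003 and 220, 3.19), Kif18a (11843 and 1493, 2.99), Kif23 (4272 and 540, 2.98), Kif14 (93.2 and 19.5, 2.26) and Kif22 (1640 and 703, 1.22) pointed the same way. Kif15 was at 1401 in J150_3 and 7735 in J151_5 (-2.47, -2.54 to -2.39), Kif18b at 283 and 1502 (-2.41, -2.59 to -2.23) and Kif11 at 4558 and 6655 (-0.55, -0.60 to -0.49). With 1 library for each profile, differences between these cells have no replicate.

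The promoters of 4 mitotic kinesins and 1 transport kinesin are shown because the study lists these 5 genes in its contrasts between types, which were made on the same cells. The windows run from 250 bases before to 50 bases after the start of the gene, on the strand of the gene, from RefSeq on GRCm38.p6. Capitals mark TTTGAA, the core of the cell cycle homology region (CHR) at which cell cycle genes are repressed in resting cells, and CCAAT, the box bound by the factor NF-Y, both searched on either strand, so that TTCAAA and ATTGG are the same motifs on the other strand. The 2 motifs can share at most 1 base.
Kif11, chr19:37376132-37376431, plus strand: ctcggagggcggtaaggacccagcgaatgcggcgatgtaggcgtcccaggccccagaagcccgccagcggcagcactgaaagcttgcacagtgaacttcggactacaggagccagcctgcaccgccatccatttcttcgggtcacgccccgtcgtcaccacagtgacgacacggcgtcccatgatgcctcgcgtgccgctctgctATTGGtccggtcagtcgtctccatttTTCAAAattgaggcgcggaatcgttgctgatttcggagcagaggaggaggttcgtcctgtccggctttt
Kif15, chr9:122950831-122951130, plus strand: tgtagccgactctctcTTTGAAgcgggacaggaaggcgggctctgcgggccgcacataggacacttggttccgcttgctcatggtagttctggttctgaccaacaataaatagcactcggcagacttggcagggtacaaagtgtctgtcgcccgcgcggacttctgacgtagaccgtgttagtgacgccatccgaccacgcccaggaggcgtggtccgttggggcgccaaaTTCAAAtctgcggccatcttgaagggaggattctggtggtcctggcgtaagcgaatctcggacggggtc
Kif20b, chr19:34922108-34922407, plus strand: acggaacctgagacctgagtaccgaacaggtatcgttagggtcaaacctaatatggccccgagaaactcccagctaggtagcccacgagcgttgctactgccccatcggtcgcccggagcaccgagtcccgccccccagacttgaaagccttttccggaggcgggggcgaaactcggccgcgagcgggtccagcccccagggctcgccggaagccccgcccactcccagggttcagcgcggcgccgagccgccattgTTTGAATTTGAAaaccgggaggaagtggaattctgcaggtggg
Kif23, chr9:61946750-61947049, minus strand: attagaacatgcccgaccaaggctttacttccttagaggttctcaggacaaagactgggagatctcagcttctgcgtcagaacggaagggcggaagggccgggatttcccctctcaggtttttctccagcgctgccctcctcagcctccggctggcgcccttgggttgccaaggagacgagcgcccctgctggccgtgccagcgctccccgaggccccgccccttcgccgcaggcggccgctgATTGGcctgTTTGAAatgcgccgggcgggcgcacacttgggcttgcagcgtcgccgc
Kif5c, chr2:49619036-49619335, plus strand: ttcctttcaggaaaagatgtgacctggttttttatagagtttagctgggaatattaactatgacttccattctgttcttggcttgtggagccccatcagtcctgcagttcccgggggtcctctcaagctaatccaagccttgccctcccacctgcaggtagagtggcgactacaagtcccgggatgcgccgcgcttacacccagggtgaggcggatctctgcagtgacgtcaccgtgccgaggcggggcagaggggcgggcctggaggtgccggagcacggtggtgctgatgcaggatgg

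TTTGAA was found in 9 of the 11 mitotic kinesin windows in the RefSeq table (81.8%), in 0 of 10 transport kinesin windows and in 18.1% of the windows of 27025 genes. CCAAT was found in 7 of 11 mitotic windows (63.6%), in 3 of 10 transport windows (30%) and in 37.9% of all genes, and both motifs stood in 6 of 11 mitotic windows (54.5%), in 0 of 10 transport windows and in 7.12% of all genes. Positions are counted from 1 at the first base of the gene and from -1 at the base before it. In Kif11 the CHR core lay on the reverse strand at -19 to -14 with a CCAAT box at -45 to -41. In Kif23 the core lay at 3 to 8 behind a CCAAT box at -7 to -3, in Kif15 cores lay at -234 to -229 and at -19 to -14, and in Kif20b cores lay side by side at 8 to 13 and 14 to 19. These are matches of letters, and binding was not measured.

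As a sum, known partners of the mitotic kinesins were also highest in J150_3 and J151_5. A list of 30 spindle and midbody genes, among them Tpx2, Aurkb, Prc1 and Racgap1, summed to 233926 in J150_3, with 30 of 30 genes at a level of at least 100, and to 123271 in J151_5, with 28 of 30. T-type cell J165_23 followed with 39237 and 22 genes, M-type cell J173_25 with 19631 and 18 genes, and S-type cell J155_9 with 12608 and 18 genes. T-type cell J161_9 reached 28457, of which Nusap1 alone held 97.7%, and its mitotic kinesin level was 50.7. NR cell J182_2 and T-type cell J162_16 had mitotic kinesin levels of 2377 and 2466, but partner sums of 909 and 1621. In the 20 genes of DNA replication the order of the leading pair was turned round, with 107835 in J151_5, of which Pcna held 41.8%, and 62295 in J150_3, on either side of 89643 in J165_23. J151_5, the cell richer in Kif11, Kif15 and Kif18b, was thus also the richer in replication genes, and J150_3 the richer in spindle and midbody genes.

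**Figure D4:**
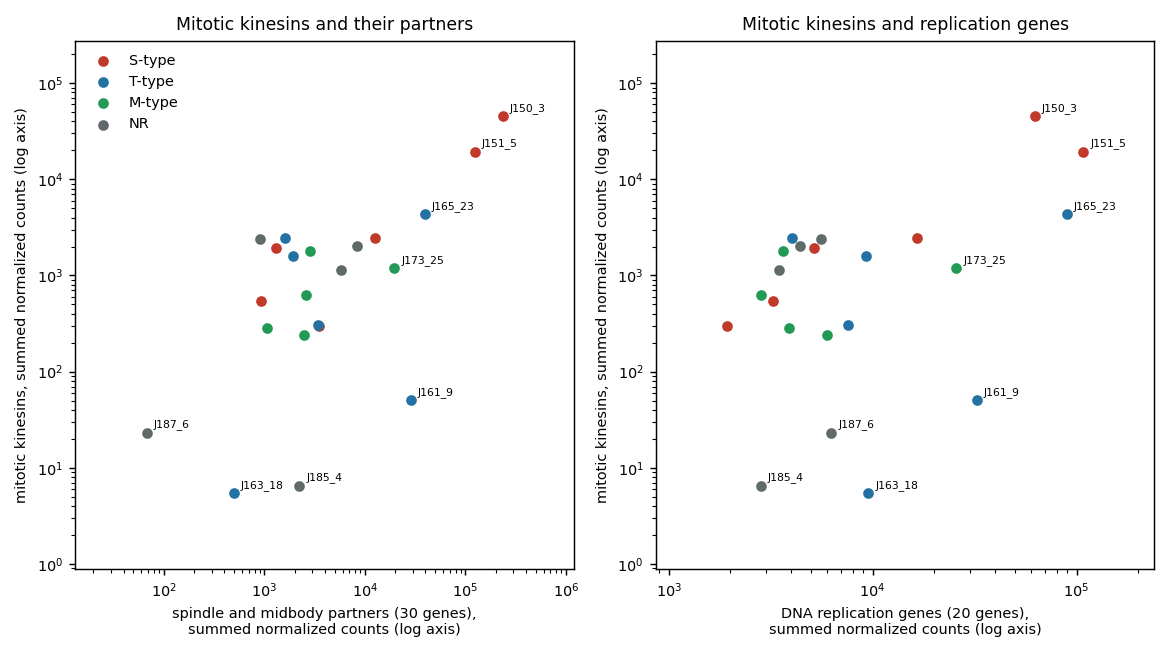
Summed level of the mitotic kinesins against the summed level of 30 spindle and midbody genes (left) and of 20 DNA replication genes (right), 1 point per cell, coloured by response type, on log axes. J150_3 and J151_5 lie at the upper right of both panels, and the other 20 cells lie at or below a mitotic kinesin level of 4336.

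Over the 22 cells, the log2 mitotic level had a Pearson r of 0.62 and a Spearman rho of 0.49 with the spindle and midbody list, and an r of 0.64 without J163_18 and J185_4, the cells farthest from the median. Both r values include J150_3 and J151_5, and none is given here for the class without them. With the replication list r was 0.43 and rho 0.37, and with the transport kinesins r was -0.04 and rho 0.09. By rho, the single kinesins most like the spindle and midbody list were Kif15 (rho 0.86, r 0.76), Kif2c (rho 0.75, r 0.80), Kif4 (rho 0.70, r 0.68) and Kif23 (rho 0.63, r 0.69), followed by the transport kinesin Kif5b (rho 0.60, r 0.64). Without the 2 cells farthest from the median of each gene, r was 0.54, 0.68, 0.59, 0.49 and 0.60 in that order. J150_3 was among the cells left out each time, and Kif5b then stood above Kif15, Kif4 and Kif23. The points share library preparation and size factors, zeros are frequent, and the values are descriptions.

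The study asked which genes set the responding types apart from NR cells and from each other, and the kinesin classes gave different answers to this question. The comparisons of the 3 responding types with NR share the same 5 NR cells. Compared with NR, the S-type mean of the mitotic class was 10.5-fold higher (11649 ± 18038 against 1114 ± 1101, SD over 6 and 5 cells, log2 ratio 3.39, 95% interval 3.36 to 3.42), and that of the transport class was 1.48-fold higher (log2 ratio 0.57). All 11 mitotic kinesins compared were past 2-fold higher in S-type, with a median log2 ratio of 4.24, whereas 25.1% of all 12621 genes compared were past 2-fold higher, with a median of 0.03. Of the 12 transport kinesins 2 were past 2-fold higher and 3 lower, the background share of lower genes being 22.5%. The cells of the 2 types overlapped for every member, whereas 0.209% of all genes compared at a level of 10 or more were apart and higher and 0.227% apart and lower. Without J150_3 the log2 ratio of the mitotic class was 2.14, without both J150_3 and J151_5 it was 0.23, and then 2 mitotic kinesins were past 2-fold higher and 3 lower of 10 compared. The shares of all genes given here include these cells, so the last counts have no matching share beside them. The ratio of the medians over cells was 0.95, and without J153_6 and J174_13 the ratio of means was 3.61.

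Kif15 showed the largest mitotic ratio in S-type over NR (log2 ratio 7.16, interval 6.86 to 7.47). Its 6 S-type cells ranged from 0 to 7735 around a median of 2.31, and the NR cells had 0, 52.8, 0, 0.598 and 0, so that its S-type mean rested on J150_3 and J151_5 and its NR mean on J183_1, without which the ratio was 13.31. Kif11 (log2 ratio 4.99) ranged from 0 to 6655 in S-type with a median of 23.3, against 254, 35.7, 0, 5.38 and 0 in NR, and had a ratio of 7.51 without J182_2. Kif20b (4.24) was the most evenly spread of these genes in S-type, with all 6 cells between 17.8 and 3874 and a median of 442, against 0.607, 248, 0.719, 1.20 and 0.927 in NR, and its ratio was 10.11 without J183_1. Kif23 (4.40) ranged from 0.876 to 4272 with a median of 109, against 75.9, 94.7, 3.60, 25.7 and 0 in NR, with a ratio of 2.01 without J150_3. Kif18a (2.53) ranged from 3.71 to 11843 with a median of 834, against 1636, 518, 0, 61.0 and 11.1, with a ratio of 0.68 without J150_3. Kif4 ranged from 0 to 9506 in S-type and had 0.607, 9.08, 0, 1925 and 1.85 in NR, and its log2 ratio of 2.17 turned to -1.002 without J150_3. Kif20a (6.34) was likewise at -0.32 without J150_3.

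**Figure D5:**
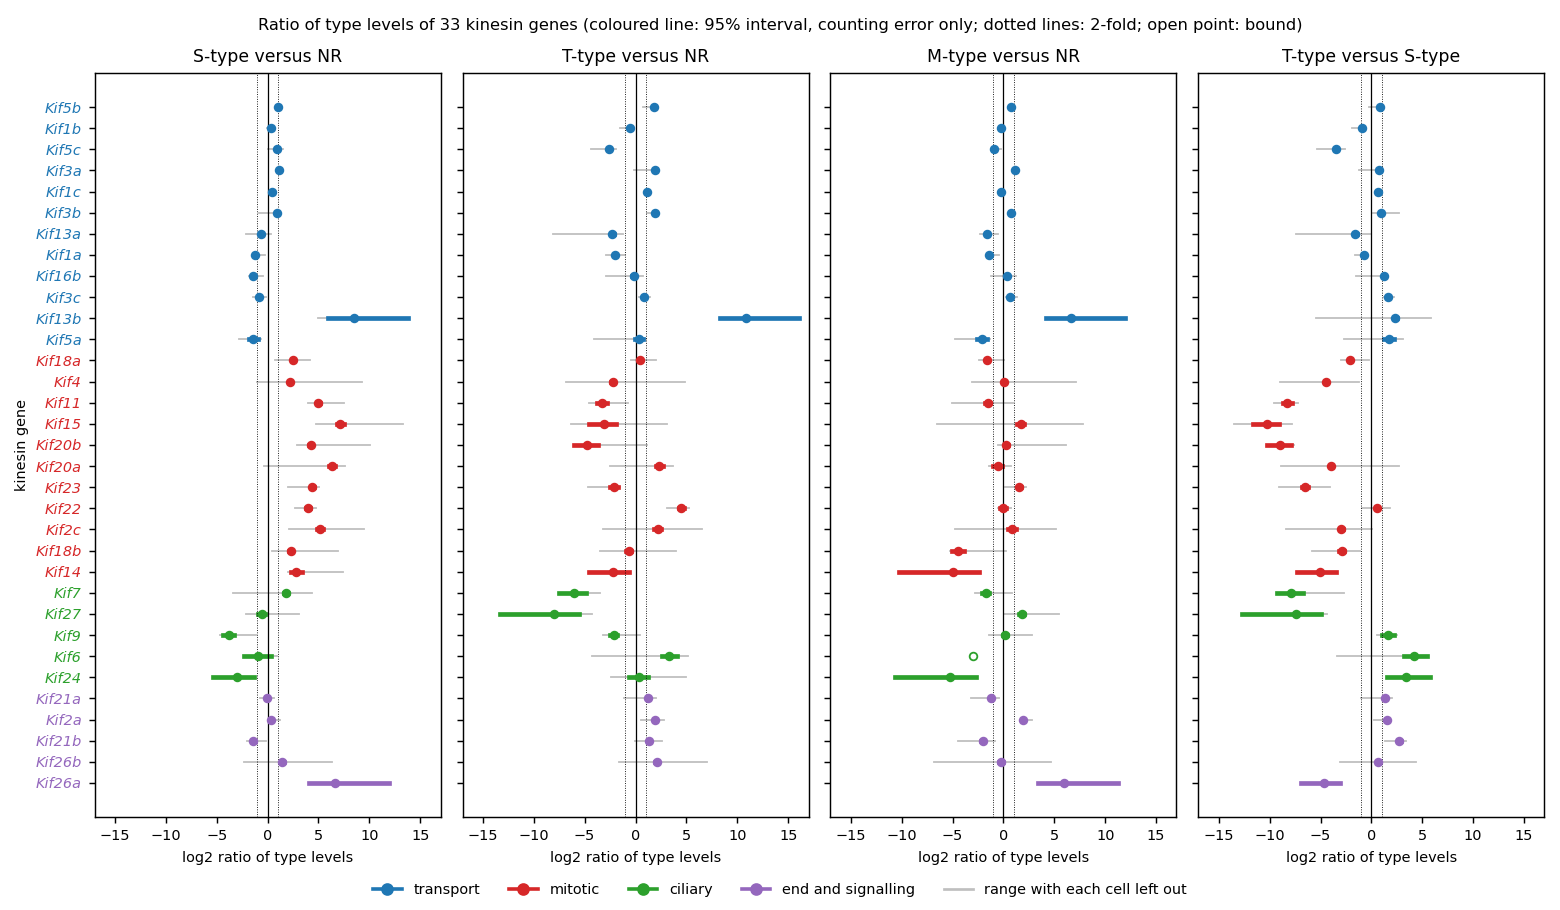
Log2 ratio of the type levels of the 33 kinesins compared, in 4 comparisons (each responding type over NR, and T-type over S-type), with the 95% counting interval and, in grey, the range over leaving out each cell in turn. All 11 mitotic kinesins lie past 2-fold in S-type over NR, and the grey ranges of Kif4 and Kif20a reach below 0.

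Over the 4 comparisons, 91 of 131 ratios of single kinesins were past 2-fold. Of all genes, 25.1% were past 2-fold higher and 22.5% lower in S-type over NR. The shares were 28.4% and 32.8% in T-type over NR, 19.8% and 28.1% in M-type over NR, and 25.7% and 32.5% in T-type over S-type. For the counts with a cell left out, no share of all genes is given here. Of these, 50 came under 2-fold and 27 changed sign when the 1 cell that moved them most was left out, and 33 of the 40 ratios within 2-fold passed that limit in the same way.

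In T-type, the mitotic class mean was 1458 ± 1717 and its log2 ratio over NR was 0.39, which fell to -0.34 without J165_23. Of 32 members compared, 13 were past 2-fold higher and 12 lower, against 28.4% and 32.8% of all genes. The cells overlapped for every member (0.215% and 0.869% of all genes were apart and higher or lower). Among the mitotic kinesins 3 were higher and 6 lower, with a median log2 ratio of -2.10. The largest was Kif22, with a log2 ratio of 4.51 (interval 4.31 to 4.72), its T-type cells being at 2419 in J162_16, 1115 in J165_23 and no more than 1.82 elsewhere, against 68.0, 61.3, 0, 0 and 0 in NR, and the ratio was 3.11 without J162_16. Transport kinesins included 5 higher and 3 lower of 12, and the class ratio was 0.86, or 0.24 without J161_9.

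In M-type the mitotic class mean was 832 ± 666 and the log2 ratio over NR was -0.42, which changed to 0.06 without NR cell J182_2. Of 33 members 7 were past 2-fold higher and 12 lower, against 19.8% and 28.1% of all genes, whose median log2 ratio was -0.20. The cells overlapped for every member here as well (0.301% and 0.363% of all genes were apart). Transport kinesins counted 2 higher and 3 lower of 12, and mitotic kinesins 2 higher and 4 lower of 11. Of the mitotic kinesins with a mean level of at least 10 in these cells, Kif18b had the lowest ratio (-4.48, interval -5.09 to -3.92), at 0, 8.40, 7.03, 0 and 0 in M-type against 333, 0.567, 0, 10.2 and 0 in NR, and without J182_2 its ratio was 0.20. Below that level, Kif14 had a ratio of -4.95 (interval -10.29 to -2.39) on 1 read in M-type and 38 in NR.

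Between T-type and S-type, the mitotic class was 7.99-fold lower in T-type (log2 ratio -3.00, interval -3.03 to -2.97), and 10 of 11 mitotic kinesins were past 2-fold lower and 0 higher, with a median log2 ratio of -4.42, where 32.5% of all 12517 genes compared were lower and 25.7% higher. Without J150_3 the class ratio was -1.75, without J150_3 and J151_5 it was 0.16 and in the latter case 4 mitotic kinesins were lower and 2 higher of 10. The shares of 32.5% and 25.7% include these cells, so the last counts have no matching share beside them. The transport class had a ratio of 0.29, which was -0.33 without J161_9 and -0.28 when library totals replaced the size factors. Kif20b was the only kinesin whose cells did not overlap between these types. It lay between 17.8 and 3874 in the S-type cells and between 0 and 7.04 in the T-type cells (log2 ratio -8.98, interval -10.30 to -7.94), and 0.723% of all genes were apart in this direction and 0.143% in the other. Kif15 had a ratio of -10.22 (interval -11.66 to -9.09), its T-type cells lying between 0 and 7.04, Kif11 one of -8.26 and Kif23 one of -6.51. Over leaving out each cell in turn, the ratio of Kif20b lay between -10.12 and -7.61 and that of Kif15 between -13.52 and -7.78.

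When the types were ordered by level, 10 of 11 mitotic kinesins were highest in S-type and 1, Kif22, in T-type, whereas of all 12719 genes 24.5% were highest in S-type, 31.9% in T-type, 26.5% in NR and 17% in M-type. Without J150_3 and J151_5, 2 of the 10 mitotic kinesins still compared (Kif14 and Kif20b) were highest in S-type, and 3, 3 and 2 were highest in the T-type, M-type and NR cells. Without these cells, 19.4% of all genes were highest in S-type, near the 20% of mitotic kinesins. The shares of all genes for T-type, M-type and NR were then 34.1%, 18.5% and 28.1%. Of the 12 transport kinesins compared, 7 were highest in T-type, 2 in S-type, 2 in NR and 1 in M-type. Without J161_9 and J162_16, 4 were highest in T-type (33.3%, against 28.4% of all genes), Kif5b then being highest in S-type, Kif3a in M-type and Kif5a in NR. For no member did the cells of neighbouring types in this order stand apart. A share of all genes is not given for neighbouring types. In the 4 comparisons of types, at most 0.869% of all genes at a level of 10 or more were apart in any 1 direction. The absence is thus not particular to kinesins.

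Single transport kinesins differed in where their highest cell lay. Kif5b was at 157196 in T-type cell J161_9, and at 7226 to 45183 in the other 21 cells. The T-type median was 21292, the S-type median 17298 (lowest 12738), the M-type cells had 28662, 30083, 15468, 11583 and 17054, and the NR cells had 8310, 7978, 13836, 22817 and 7226. The log2 ratio of Kif5b over NR was 1.84 in T-type (0.75 without J161_9), 0.97 in S-type and 0.77 in M-type, and the cells of the types overlapped each time. J161_9 also had the highest summed level of mural cell and fibroblast markers (112394), of which Acta2 held 91.8%, 4 of the 9 markers having a read. S-type cell J155_9 followed with 95439, and its transport level of 32059 was the lowest of the S-type cells. The part of these markers in the Kif5b level was not tested.

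Kif1b ranged from 6561 to 27818 in S-type (median 9274) and from 7.25 in J162_16 to 25058 in J163_18 in T-type (median 4445). The M-type cells had 15989, 6022, 4760, 12936 and 6199 and the NR cells 20390, 7037, 12884, 9755 and 3359. Its log2 ratios to NR were 0.32 in S-type cells, -0.57 in T-type and -0.22 for M-type, of which that of the T-type was -1.56, past 2-fold, without J163_18.

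Kif5c had the largest ratio between T-type and S-type of the 4 transport kinesins with the most reads. It lay between 341 and 19077 in S-type (median 3097), and at 7413, 3183, 2724, 2014 and 297 in NR, whereas in T-type 4 of 6 cells had at most 23.9 and the remaining cells had 682 (J163_18) and 2438 (J166_25). The M-type cells had 1020, 954, 3073, 1319 and 2101. The log2 ratio was -3.47 in T-type over S-type (interval -3.52 to -3.42) and -2.57 in T-type over NR (-2.61 to -2.52), or -5.32 and -4.42 without J166_25, while S-type over NR was 0.90, or 0.04 without J151_5. J151_5 also had the highest summed level of neuron markers (32068), of which Stmn2 held 98.6%, with 5 of 13 markers having a read. The next highest were NR cell J187_6 (10759) and S-type cell J150_3 (8931). Each had the lowest Kif5c level of its type, at 297 and 341. The part of neuron markers in the Kif5c level was not tested.

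Kif3a was at 15159 in T-type cell J162_16 and between 0.648 and 1713 in the other T-type cells. Its log2 ratio over NR of 1.89 was -0.12 without J162_16. The level in J162_16 rests on the size factor of 0.276 of that library. There Kif3a held 29.2% of 14338 transport reads, in a library of 12564138 reads. In M-type cell J176_25 it held 9.74% of 78140 transport reads, in a library of 22131076 reads. Relative to library totals, Kif3a was therefore slightly lower in J162_16 than in J176_25. S-type cells ranged from 201 in J150_3 to 2776 with a median of 1962, M-type cells had 326, 2925, 1172, 1698 and 3287, and NR cells had 608, 1728, 1050, 601 and 299. The ratios of S-type and M-type over NR were 1.11 and 1.13, and no single cell left out brought either under 0.84. Its partner Kif3b had log2 ratios over NR of 1.94 in T-type, 0.97 in S-type and 0.79 in M-type, and -0.80 in S-type without J151_5, where it was at 8075. Kif1c was 2.16-fold higher in T-type than in NR (log2 ratio 1.11, between 0.80 and 1.34 over leaving out each cell).

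Kif1a, a carrier of synaptic vesicle precursors in neurons, was the only transport kinesin past 2-fold lower than NR in all 3 responding types, at log2 ratios of -1.28, -2.01 and -1.44. A single NR cell, J187_6, held 60.5% of the NR level of Kif1a, and leaving it out gave ratios of -0.26, -0.996 and -0.42. J187_6 also had the highest summed level of neuron markers among NR cells (10759, of which Stmn2 held 56.9%, with 6 of 13 markers having a read, against at most 2484 in the other NR cells). Kif1a held 22.2% of the transport reads of J187_6, but 0.520% in J151_5, the cell with the highest neuron marker level (32068). The part of neuron markers in the Kif1a level was not tested. Kif13a, an endosome motor, was past 2-fold lower than NR in T-type (-2.27) and M-type (-1.59), and the same cell J187_6 held 60.4% of its NR level (7972). Without J187_6 these ratios were -1.25 and -0.58, so that the M-type ratio came under 2-fold, and the T-type ratio was -8.10 without J163_18. Kif16b, a motor of early endosomes, was lower in S-type than in NR (-1.42, and -0.50 without NR cell J185_4). Kif13b, a relative of Kif13a, had 1 read in all NR cells together, against 1903 reads in T-type, all of them in J166_25 (1219), and the log2 ratio of 10.81 had an interval from 8.33 to 16.11. In S-type over NR its ratio was 8.45 (5.96 to 13.75), with 220 in J156_16 and at most 14.0 elsewhere. Kif5a, the third kinesin-1 heavy chain and the most neuronal one, stayed at or below 138 in every cell and was lower in M-type than in NR (-2.06, and -4.77 without J174_13). Kif3c did not pass 2-fold against NR in any type (-0.81, 0.80 and 0.62) and was 3.05-fold higher in T-type than in S-type. With 1 cell left out it passed 2-fold in all 3 comparisons with NR, at -1.41 without J156_16 and at 1.46 in T-type and 1.29 in M-type without J182_2.

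Of 17 genes whose products work with the transport kinesins (light chains such as Klc1, the kinesin-2 subunit Kifap3, and cargo adaptors such as Trak1 and Rhot1), 0 were past 2-fold higher and 6 lower in S-type than in NR, 1 higher and 8 lower in T-type and 0 and 6 in M-type. Between T-type and S-type 4 were higher and 5 lower. The shares of all genes past 2-fold higher and lower in these 4 comparisons were 25.1% and 22.5%, 28.4% and 32.8%, 19.8% and 28.1%, and 25.7% and 32.5%, and several of the counts in these lists lie near them. Of 25 genes of dynein and dynactin, the motor that walks the other way, 8 were higher and 2 lower in S-type than in NR, 9 and 2 in T-type, 2 and 2 in M-type, and 8 and 7 in T-type over S-type. Among kinesins that carry other symbols, Cenpe, a kinetochore kinesin, had a mean level of 955 in S-type, against 45.3 (NR), 29.1 (M-type) and 10.0 (T-type). Without J150_3, its highest cell (4062), the S-type mean was 334. Kifc1, a spindle kinesin that walks to the minus end, had 61.8 in S-type, against 1.36, 0.560 and 3.30, and 23.7 without J155_9 (253). Of 5 such kinesins (Kifc3, Kifc2 and Kifc5b being the others), 3 were past 2-fold higher and 1 lower in S-type than in NR, 1 and 3 in T-type, 0 and 3 in M-type, and 1 and 4 in T-type over S-type.

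Kinesins of microtubule ends and signalling had a mean class level of 4583 ± 4982 (SD over cells) in T-type, against 1792 ± 1439 (M-type), 1718 ± 1298 (S-type) and 1711 ± 972 (NR). The T-type mean had a log2 ratio over NR of 1.42, or 0.67 without J161_9, where Kif21a, which slows microtubule growth at the cell cortex, was at 12816. Kif2a, a depolymerase of microtubule ends, was higher than NR in T-type (1.87, or 0.58 without J166_25, where it was at 4704) and in M-type (1.89). Its M-type cells had 425, 1417, 1267, 2088 and 820, against 239, 919, 111, 28.1 and 324 in NR, and the M-type ratio was no lower than 1.60 with any 1 cell left out. Kif21b, a relative of Kif21a, was 6.73-fold higher in T-type than in S-type (log2 ratio 2.75), with 2242 in J163_18 and 901 in J161_9, and at 1.34 without J163_18. Kif26a, which has no motor activity, had at most 3 reads in both T-type and NR, and no ratio is given for that comparison. Its relative Kif26b rested on 1 cell in each type, such as S-type cell J156_16, which held 93.6% of the S-type level.

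Ciliary kinesins were rare, with class levels from 0 to 884. The highest S-type cell was J151_5, where Kif7, a regulator of hedgehog signalling at the ciliary tip, was at 880. Without it the S-type log2 ratio over NR changed from 0.46 to -1.995. Kif7 was 65.8-fold lower in T-type than in NR (log2 ratio -6.04, interval -7.50 to -4.90), on 6 reads in T-type, all in J165_23, and 243 in NR, 86.5% of the NR level lying in J187_6, without which the ratio was -3.48. Kif27, its relative needed for motile cilia, had 1 read in T-type and 228 in NR (-8.02, -13.33 to -5.53, or -4.32 without NR cell J186_5), and was 3.44-fold higher in M-type than in NR (1.78, or 0.02 without J173_25). Kif9, a kinesin of motile cilia, was 13.8-fold lower in S-type than in NR (-3.79), with 87.0% of the NR level in J185_4 and a ratio of -1.17 without it. Kif6, also of motile cilia, was at 146 in T-type cell J161_9 and under 10 in every other cell, and had no read in M-type, which was at least 7.79-fold lower than NR. Of its 20 NR reads 17 were in J183_1, and without that cell too few reads were left for a ratio. Kif24, which caps the mother centriole, had 51 reads in all.

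Some members share exon sequence with a gene on the other strand, and because no source states whether the counting used the strand, their reads cannot be told apart from those of that gene. This concerned 35.3% of the exon bases of Kif3c (shared with 1110002L01Rik), 29.3% of Kif20a (Cdc23), 19.2% of Kif2a (Dimt1), 19.1% of Kif7 (9330171B17Rik) and 15.1% of Kif4 (Pdzd11). Kif4 lies on the X chromosome. All 5 NR cells had Y-linked reads (158 to 9817) and at most 2 of Xist, while J150_3 and J151_5 had 513 and 1365 reads of Xist and at most 1 Y-linked read, and the part of sex in the kinesin levels was not tested.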

How the data were processed

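RNA of each astrocyte was amplified as antisense RNA, made into stranded TruSeq libraries and sequenced on a NextSeq instrument. The authors aligned the reads to GRCm38 with STAR and counted exonic reads per gene with VERSE; the submitters' processing notes name STAR and HTSeq, and the versions are not given in the sources used here. The deposited values are raw counts, 1 column per cell, without normalization or molecular identifiers, and totals lay between 2937786 and 22131076 reads.

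Size factors were computed as medians of ratios over the 3670 genes detected in all cells (Python 3.11.15, NumPy 2.4.6, pandas 2.3.3). Counts over size factors were averaged over the cells of a type to give its level. A type without a read was set to 3 reads over its summed size factors, which gives a bound, and no ratio was formed where both types had at most 3 reads. The 12719 genes detected in 5 or more cells were compared at a limit of 2-fold. Intervals (95%, SciPy 1.17.1) came from the exact binomial split of the reads. For ratios, the reads were pooled over the cells of a type and the interval was centred on the ratio of levels. The computation was checked on simulated counts, and matplotlib 3.10.9 drew the figures. Cells counted as 1 sample per type because no pup or culture is named, whereas the study tested cells as replicates.

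The members and lists were chosen with earlier results of these data known, and the role classes follow textbook knowledge. Genes described with each cell were the 4 transport and 4 mitotic kinesins with the most reads, the 5 that the study lists between types, and in each comparison the 2 with the largest ratio per direction at a mean level of at least 10, and others named in the text were chosen after their values were seen. Gene positions and exon lengths came from the GRCm38 annotation and promoters from RefSeq, which held 11 of 12 mitotic and 10 of 13 transport kinesins. Alternatives were TMM factors (edgeR 4.0.16 under R 4.3.3), library totals in place of size factors, medians over cells, thinning to the smallest library, other filters, a pseudocount of 1, and leaving out cells. Calcium recordings were not used here.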

Additional observations from a re-analysis of the deposited data

Results flagged for a closer look

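Within each type, the highest and the lowest cell were set against the gap to the next cell for 29 measures (class levels, and log2 of the normalized count plus 1 for single kinesins), which gave 116 groups. In 17 of them a cell stood apart by Dixon's 95% limit. Chance alone flags about 1 in 20 groups, more readily where most cells are at 0. Several of the flagged genes had been named for large ratios in these same cells, which a single extreme cell can produce. The 17 can therefore not be set against that rate.

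Among class levels, T-type cell J161_9 stood apart in the transport kinesins (171722) and in the ciliary kinesins (146.386), S-type cell J151_5 in the ciliary kinesins (884.463) and M-type cell J173_25 in the ciliary kinesins (618.982). Among single genes on the log2 scale, T-type cell J162_16 was low in Kif1b (3.04) and S-type cell J150_3 was low in Kif3a (7.66). T-type cells were high in Kif4 (8.88, J165_23), Kif15 (3.01, J161_9), Kif5a (7.12, J161_9), Kif6 (7.20, J161_9), Kif7 (2.29, J165_23), Kif13b (10.25, J166_25) and Kif27 (0.71, J166_25). M-type cell J173_25 was high in Kif15 (7.43), and NR cell J183_1 was high in Kif15 (5.75), Kif20b (7.96) and Kif13b (0.65). The values of Kif7, Kif13b and Kif27 came from the single T-type cell with a read, and that of Kif13b in NR from 1 read.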

How the results depend on the processing

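Of the class ratios, shares and counts, 284 of 286 values with 1 cell left out stayed within the spread between cells or 1.5 times the count, but that spread is wide, and 7 of the 10 class ratios within 2-fold changed sign with some cell left out. Of the 6 class ratios past 2-fold, 3 came under it and 1 changed sign, namely the ciliary ratio of T-type over S-type, which ran from -3.12 to 0.37. Under the other settings 6 values moved by more and 2 changed sign. With medians over cells, 7 kinesins in place of 12 were past 2-fold lower in M-type than in NR, and 3 in place of 10 were higher in T-type than in S-type. The S-type median of members with a read was 23 after thinning and 22.5 at 5 reads or more, in place of 26. Without J150_3 and J151_5, which held 92.5% of the S-type mitotic level, 6 kinesins in place of 16 were higher in S-type than in NR, 9 in place of 15 were lower in T-type than in S-type, and the mitotic log2 ratio of T-type over S-type was 0.16 in place of -3.00 and the ciliary one 0.073 in place of -2.08. With 1 cell left out, between 4 and 10 kinesins were higher in M-type than in NR, in place of 7. Shares of all genes under these settings are not given here.

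Of the 91 ratios of single kinesins past 2-fold, 27 changed sign with some cell left out, where ratios with at most 3 reads left in both types were not formed. No matching share of all genes is given here. The range over left-out cells was -1.002 to 9.24 for Kif4, -0.32 to 7.65 for Kif20a, -2.27 to 6.34 for Kif26b and -3.39 to 4.38 for Kif7 in S-type over NR. In T-type over NR the range was -4.28 to 5.14 for Kif6, -0.12 to 2.32 for Kif3a, -0.057 to 2.59 for Kif21b, -6.36 to 3.10 for Kif15, -5.88 to 1.13 for Kif20b, -3.20 to 0.46 for Kif9, -3.21 to 6.51 for Kif2c, -2.53 to 3.66 for Kif20a, -1.13 to 1.99 for Kif21a, -1.65 to 6.99 for Kif26b and -6.79 to 4.82 for Kif4. In M-type over NR it was -6.51 to 7.84 for Kif15, -2.36 to 0.0051 for Kif18a, -5.09 to 0.96 for Kif11, -5.29 to 0.20 for Kif18b and -2.80 to 0.82 for Kif7. In T-type over S-type it was -2.69 to 3.09 for Kif5a, -3.35 to 5.13 for Kif6, -1.47 to 1.66 for Kif16b, -8.36 to 0.11 for Kif2c, -8.87 to 2.68 for Kif20a, -1.02 to 1.99 for Kif21a and -5.43 to 5.84 for Kif13b. The median log2 ratio of all genes moved from -0.05 to -0.45 in T-type over NR when library totals replaced the size factors, and from -0.07 to -0.44 in T-type over S-type.

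Leaving out J153_6 and J174_13, the order of types without leading cells, and the alternatives for ciliary and microtubule-end levels were chosen after seeing the data. No paired analysis was possible because no test was made and replicate numbers only follow accession order. With 5 or 6 cells and no named animal, spread between cells cannot be told apart from spread between cultures.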
